A study of Rattus norvegicus with 18 samples.

Results

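Immediate early genes are the first genes a cell transcribes after a stimulus, without new protein synthesis. The 10 members described here are Egr1, Egr2, Egr3, Egr4, Fos, Fosb, Junb, Nr4a1, Arc and Dusp1, out of 28111 gene symbols in the deposited retina table. They were chosen by name as a gene family, and the choice was made with the aged against young retina in view, in which Egr1 had already been seen to be much lower. The levels in that comparison are therefore given as a description, with no test of the members, and the list has no threshold that would set a member just inside or just outside it. Of the 10 genes, 9 could be matched to an identifier in both tissues. Egr4 was listed in retina by symbol only, with 3 reads in all 9 libraries together (1 each in young library 2, young library 3 and 8-AG treated library 3), and no level is given for it.

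The study asked how the retina and the RPE/choroid (the retinal pigment epithelium with the vascular layer behind it) change with age in wild-type female Fischer344 rats, and what oral 8-aminoguanine (8-AG), an inhibitor of purine nucleoside phosphorylase, does to the aged eye. Young rats were untreated and, by the sample labels, 4 months old, while the study's text gives a younger age for its young rats. Aged rats were 24 months old and had water alone, and 8-AG treated aged rats were also 24 months old and had received 5 mg/kg/day in drinking water for 8 weeks. Bulk RNA-seq gave 3 libraries per group in each tissue, 18 in all. Eyes were taken out at death from rats kept in a standard light and dark cycle, the front of the eye and the lens were removed, the neural retina was lifted off, and the RPE/choroid was rinsed from what remained. No time of day or time to freezing was given for single rats, and the part of these in any level given here was not tested.

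The retina libraries held 12283458 to 15644346 counts and the RPE/choroid libraries 28573828 to 48203050. Levels are CPM, a gene's counts as a share of its library, scaled by TMM over the 9 libraries of a tissue. The tissues were prepared and normalized separately, so their levels are not set against each other. Log2 fold changes are given with a standard error (SE), and a value above 0 means more in the group named first. The test was edgeR's quasi-likelihood F-test over all genes of a pair of groups, with Benjamini-Hochberg adjustment. The SE was worked back from that test, as the size of the log2 fold change over the square root of F. The smallest p of an exact two-sided permutation test of 3 libraries against 3 is 0.1, and for that reason overlap between groups is stated for each member. In bulk libraries fewer cells of a type and less RNA per cell cannot be told apart.

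Some libraries stood apart. In the retina, summed lens fibre markers (17 of 19 found, Cryaa holding 59.3% of the sum) were at 3143, 7021 and 179 CPM in the 3 young libraries and at 1926 CPM in 8-AG treated library 1, against 19.3 to 25.2 CPM in the other 5 libraries. The 13 rod markers found of 14 summed to 56959 to 62291 CPM in young, 35817 to 40694 CPM in aged and 36460 to 48536 CPM in 8-AG treated retina. In the RPE/choroid, rod markers ran from 641 CPM in aged library 2 to 56610 CPM in 8-AG treated library 1. The 12 RPE markers summed to 9892 to 19057 CPM in 8 of those libraries and to 6248 CPM in 8-AG treated library 1, which also held 1256 CPM of surface epithelium keratins. Treated library 3 held 221 CPM of these keratins, and the other 7 libraries 2.75 to 11.3 CPM. Young RPE/choroid libraries 1 and 2 carry the same number in their labels with the letters L and R, and so do aged libraries 1 and 2. Whether each pair came from a single animal is not stated, and p-values there measure only the spread between these libraries.

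As background, the members act at different steps. Egr1, Egr2, Egr3 and Egr4 are zinc finger transcription factors. Fos and Fosb pair with Jun proteins such as Junb to form AP-1, a dimeric transcription factor. Nr4a1 is an orphan nuclear receptor, Arc is a neuronal protein that promotes removal of AMPA receptors from synapses, and Dusp1 is a phosphatase that switches off MAP kinases. Most of the family is switched on through serum response factor at CArG boxes or through CREB at cAMP response elements, and in the retina light, dopamine and injury are known stimuli, with Egr1 in amacrine cells known from animal models of myopia to respond to image defocus.

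RefSeq promoter windows of assembly GRCr8, 250 bases before to 50 after the start, were on hand for 7 of the 10 members: Egr1, Egr2, Egr4, Fosb, Junb, Nr4a1 and Dusp1. The CArG box was found in the windows of Egr1 (2 matches, starting at -105 and -83) and Egr2 (1 match at -83) and in 1.64% of all 33469 windows. The full cAMP response element, TGACGTCA, was found in Dusp1 alone among these 7 and in 1.83% of all windows. Its core, TGACG on either strand, was found in all of the 7 but Fosb, and in 21.2% of all windows; Nr4a1 held the most, with 4. The AP-1 letters TGANTCA were in none of the 7 and in 7.33% of all windows. The TATA box letters TATAAA, on either strand, were in Fosb and Junb and in 14.2% of all windows. Dusp1 and Nr4a1, which were lower in aged than in young retina, and Junb, which was higher, are shown up to the base before the start, with the full cAMP response element in capitals for Dusp1, the core (all 4 read CGTCA on this strand) for Nr4a1 and the TATA box for Junb. These matches are letters in a window and were not tied to any measurement. The Dusp1 stretch is chr10:17184703-17184852, that of Nr4a1 chr7:134259888-134260137 and that of Junb chr19:40080976-40081125, all on the plus strand.
Dusp1: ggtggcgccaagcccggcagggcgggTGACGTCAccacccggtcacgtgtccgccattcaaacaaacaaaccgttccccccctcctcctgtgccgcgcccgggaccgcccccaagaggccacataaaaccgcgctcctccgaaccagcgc
Nr4a1: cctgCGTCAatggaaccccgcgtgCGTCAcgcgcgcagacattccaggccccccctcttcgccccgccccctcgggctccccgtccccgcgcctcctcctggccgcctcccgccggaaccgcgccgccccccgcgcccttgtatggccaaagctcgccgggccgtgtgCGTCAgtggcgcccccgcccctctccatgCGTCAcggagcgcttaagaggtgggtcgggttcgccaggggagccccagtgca
Junb: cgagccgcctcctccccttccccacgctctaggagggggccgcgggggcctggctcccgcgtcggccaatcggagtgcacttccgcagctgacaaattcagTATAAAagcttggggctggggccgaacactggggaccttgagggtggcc

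In aged against young retina, the family did not shift as a block. Egr1 was lower by far more than the rest, Dusp1, Fos and Nr4a1 were 1.91-fold to 2.18-fold lower in mean, Junb was higher, Fosb and Arc overlapped, and Egr2 and Egr3 were rare and higher. The groups did not overlap for 4 of the 7 members that passed the expression filter on the lower side and for 1 on the higher side. Over all genes tested, 17.5% lay apart in each direction, 14.5% passed an adjusted p under 0.05 with edgeR, 29.2% an unadjusted one and 8.84% the study's rule of a fold over 1.5 with an unadjusted p under 0.05. Since this comparison chose the members, nothing is read from those shares.

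Among the Egr factors, Egr1 (ENSRNOG00000019422) stood at 1137, 1007 and 251 CPM in young retina, at 27.9, 15.6 and 9.42 CPM in aged retina and at 36.8, 25.1 and 22.8 CPM in 8-AG treated retina. The lowest young library was 8.99-fold above the highest aged one, while young libraries themselves spanned 4.53-fold. The means were 798 ± 479 CPM (SD, n = 3) in young and 17.6 ± 9.39 CPM in aged retina, 45.2-fold apart, with a log2 fold change of -5.51 (SE 0.90). Leaving out each library in turn moved that value between -6.00 and -5.17.

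The young libraries with the most Egr1 were also those with the most lens fibre RNA. Young libraries 1 and 2 held 1137 and 1007 CPM of Egr1 beside 3143 and 7021 CPM of lens markers, and young library 3 held 251 CPM beside 179 CPM. The 8-AG treated library with 1926 CPM of lens markers held 36.8 CPM of Egr1, less than young library 3 had with 179 CPM of lens markers and the most of the 6 aged and treated libraries. The part of lens tissue in the level of Egr1 was not tested.

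**Figure D1:**
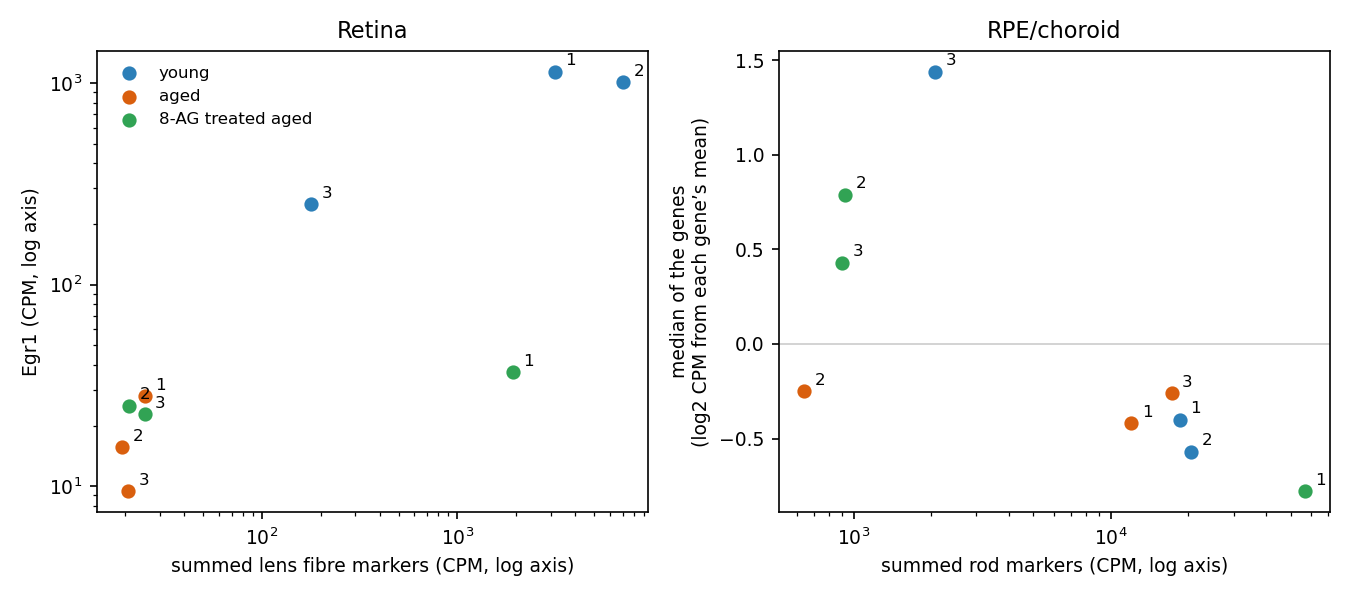
Left, Egr1 against the summed lens fibre markers in the 9 retina libraries (both in CPM, log axes). Right, the median of the 9 measured genes, as log2 CPM from each gene's mean over the tissue, against the summed rod markers (CPM, log axis) in the 9 RPE/choroid libraries. Digits are replicate numbers. The 3 young retina libraries sit between 251 and 1137 CPM of Egr1 and all others at or below 36.8 CPM, and the 3 RPE/choroid libraries with a median above 0 have rod sums of 903 to 2078 CPM. Aged RPE/choroid library 2, with the lowest rod sum (641 CPM), has a median of -0.25.

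Egr2 (ENSRNOG00000000640) and Egr3 (ENSRNOG00000017828) ran the other way, from few reads. Egr2 had 2, 1 and 1 reads in the young libraries, 8, 12 and 4 in the aged and 13, 5 and 7 in the 8-AG treated ones. Egr3 had 3, 3 and 2 reads in young, 15, 13 and 9 in aged and 9, 9 and 10 in 8-AG treated retina. In both genes every young library was below every aged and treated one in CPM. Egr2 rested on 1 or 2 reads per young library, and both genes were under the expression filter of the main fit, entering only some of the alternative fits.

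Among the AP-1 members, Fos (ENSRNOG00000008015) stood at 37.8, 26.6 and 24.8 CPM in young and at 22.0, 14.7 and 5.96 CPM in aged retina. The groups did not overlap, but the lowest young library was only 1.13-fold above the highest aged one, and the log2 fold change was -1.07 (SE 0.51). With a library left out it ran from -1.52 to -0.70. Fosb (ENSRNOG00000046667) stood at 4.85, 3.53 and 4.35 CPM in young and 2.72, 4.59 and 3.32 CPM in aged retina, overlapping, at -0.25 (SE 0.24). Its fold change ran from -0.48 to -0.1 with a library left out.

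Junb (ENSRNOG00000042838) was the well-counted member with the opposite sign. It stood at 17.6, 15.6 and 17.7 CPM in young and at 32.4, 29.6 and 20.9 CPM in aged retina. Every aged library was above every young one, and the log2 fold change was 0.70 (SE 0.16).

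Nr4a1 (ENSRNOG00000007607) stood at 16.6, 16.9 and 26.7 CPM in young and at 12.3, 8.49 and 10.7 CPM in aged retina, with a log2 fold change of -0.94 (SE 0.21). Arc (ENSRNOG00000043465), the one member tied to synapses, stood at 0.694, 0.75 and 0.953 CPM in young and 1.32, 0.447 and 0.970 CPM in aged retina. The Arc groups overlapped, with 7 to 17 reads per library, and its fold change of 0.16 (SE 0.43) turned to -0.19 without aged library 1.

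Dusp1 (ENSRNOG00000003977) varied least within groups. It stood at 36.5, 33.8 and 36.9 CPM in young and at 15.8, 16.02 and 17.2 CPM in aged retina, with an SD of 4.71% and 4.69% of the mean. The lowest young library was 1.96-fold above the highest aged one, and the log2 fold change was -1.12 (SE 0.079). The median over the 7 members that passed the filter was -0.94, beside 0.002 for all 14588 genes. The filter left out Egr2 and Egr3, both higher in aged retina, and without a filter the median over the 9 measured members was -0.25, with 4 of 9 above 0.

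**Figure D2:**
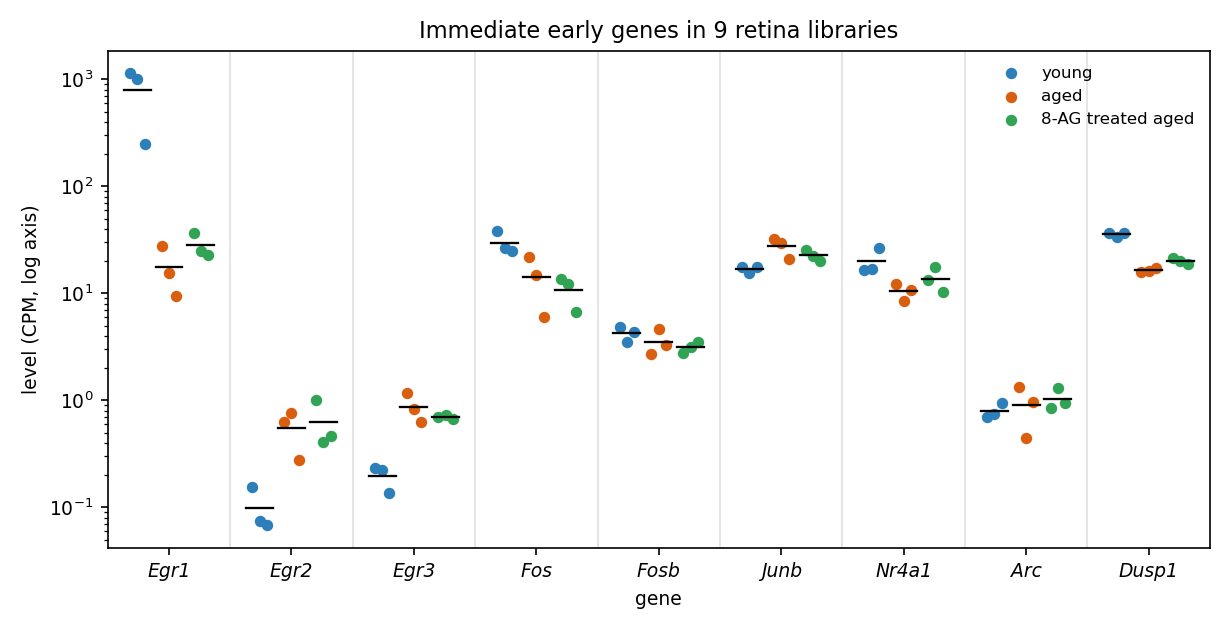
Level (CPM, log axis) of 9 of the genes in the 9 retina libraries; points are libraries, black lines group means, and blue, orange and green are the young, untreated aged and treated groups. Egr1 is at 251 to 1137 CPM in young and 9.42 to 27.9 CPM in aged retina, Dusp1 is tight in every group, and Junb, Egr2 and Egr3 are lower in young libraries.

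Other immediate early genes of the same contrast, taken from a list of 58 written from general knowledge, moved in both directions. This list and those of upstream and feedback, heat shock and clock genes were written with earlier results of these data known. Their shares and adjusted p-values in this contrast are therefore given as a description. Of 52 tested, 10 rose and 6 fell in aged retina (adjusted p under 0.05, edgeR), 30.8% in all, beside 14.5% of all genes (7.29% higher and 7.26% lower), and the median of the list was 0.23. Socs3, which damps cytokine receptor signalling, had a mean of 5.66 ± 2.40 CPM in aged rats, against 0.411 ± 0.158 CPM in young ones, and rose by 3.75 on the log2 scale (SE 0.43, edgeR adjusted p = 0.000743). Cyr61, a secreted matrix protein, rose by 2.60 (SE 0.42, edgeR adjusted p = 0.00308), and Cebpd, a transcription factor of acute inflammation, by 2.35 (SE 0.27, edgeR adjusted p = 0.00172). Npas4, a neuronal factor induced by calcium entry, rose from 0.740 ± 0.360 to 3.59 ± 1.84 CPM, by 2.24 (SE 0.51, edgeR adjusted p = 0.022). Of the 6 that fell, Inhba had the largest change, at -1.62 (SE 0.41), and was named after its value was seen. Microglia and macrophage markers moved with these rises, at 36.4 to 38.4 CPM summed in young and 112 to 192 CPM in aged retina, with 8 of 9 markers found. The part of those cells in the rises was not tested.

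Of 40 genes that act upstream of the family or in its feedback, 36 were tested, and 4 rose and 4 fell, 22.2% beside 14.5% of all genes. Rps6ka2, a kinase downstream of ERK, rose from 199.5 ± 7.14 to 406 ± 65.0 CPM (log2 fold change 1.03, SE 0.10, edgeR adjusted p = 0.000493). Elk3, a ternary complex factor that binds beside serum response factor, rose by 0.90 (SE 0.23, edgeR adjusted p = 0.027). Dusp6, a phosphatase for ERK, rose by 0.88 (SE 0.17, edgeR adjusted p = 0.00763), opposite in sign to Dusp1. Rps6ka1 rose by 0.69 (SE 0.19, edgeR adjusted p = 0.0424). The genes that fell did so by less, among them, named after their values were seen, the phosphatases Dusp5 (-0.53, SE 0.11) and Dusp14 (-0.39, SE 0.096) and the ternary complex factor Elk1 (-0.28, SE 0.068). The median of the list was -0.04, with 16 of 36 genes above 0.

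Heat shock genes, which can move with tissue handling, summed to 975 to 1259 CPM in young and 976 to 1135 CPM in aged retina, and clock genes to 1391 to 1446 CPM and 1299 to 1487 CPM. Both sums overlapped between these groups. Of 7 heat shock genes tested, 2 rose and 1 fell, 42.9% beside 14.5% of all genes, and 5 had an unadjusted p under 0.05. Those called, named after their values were seen, were Hspb1 (log2 fold change 2.47, SE 0.35), Bag3 (0.90, SE 0.15) and Hspa1a (-0.76, SE 0.077). Of 12 clock genes 1 rose and 1 fell, 16.7%. The part of tissue handling in the members' levels was not tested.

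8-AG treated against aged retina shares the aged libraries with the comparison that chose the members. None of the 7 members tested passed an adjusted p under 0.05, where 0.0205% of all genes did. The smallest adjusted p of a member with edgeR was 0.996. At an unadjusted p under 0.05, 1 member (Dusp1) passed with edgeR and 0 with DESeq2, beside 3.67% of all genes with edgeR, and 0 met the study's fold rule, beside 0.957%. The Dusp1 call was lost without aged library 1 or 2 or treated library 1 or 2 (edgeR p 0.0508 to 0.0573). Under the replicate block 3 members passed unadjusted with edgeR (Egr1 0.00373, Dusp1 0.0308 and Junb 0.0399). Without aged library 1, Egr1 did (0.00886). The shares of all genes with DESeq2 and in these alternative fits were not taken.

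Dusp1 stood at 21.3, 20.01 and 18.7 CPM in treated retina against 15.8, 16.02 and 17.2 CPM in aged retina. Every treated library was above every aged one and below every young one, which lay between 33.8 and 36.9 CPM. The log2 fold change was 0.29 (SE 0.10, edgeR adjusted p = 0.996). Over all genes tested, 4.57% lay apart in this direction and 4.07% in the other, and Dusp1 was the only one of the 7 members that did in either. The treated mean was 1.22-fold the aged mean, under the 1.5-fold of the study's rule. Summed heat shock genes moved with it without overlap, at 1174 to 1319 CPM in treated and 976 to 1135 CPM in aged retina (6 of 7 genes above 0, 2 at an unadjusted p under 0.05), and so did surface epithelium keratins, at 11.1 to 26.6 CPM and 2.56 to 5.04 CPM. Their part in the level of Dusp1 was not tested.

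Egr1 was 1.60-fold higher in mean after treatment, 28.3 ± 7.51 against 17.6 ± 9.39 CPM, with a log2 fold change of 0.68 (SE 0.43). The groups overlapped, since aged library 1, at 27.9 CPM, was above treated libraries 2 and 3. Nr4a1 stood at 13.2, 17.5 and 10.4 CPM after treatment, with a log2 fold change of 0.38 (SE 0.21). Fos stood at 13.5, 12.3 and 6.75 CPM, at -0.39 (SE 0.53). Junb stood at 25.4, 22.2 and 20.2 CPM, at -0.29 (SE 0.17), between the young and the aged means. Fosb and Arc stood at 2.77 to 3.54 CPM and 0.845 to 1.30 CPM, both inside the aged range. Without treated library 1, which held the lens RNA, Dusp1 was at 0.24, Egr1 at 0.45 and Junb at -0.38. Over all libraries left out in turn, Egr1 ran from 0.37 (without aged library 3) to 1.17 (without aged library 1) and Nr4a1 from 0.17 (without treated library 2) to 0.56 (without treated library 3).

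Neither list beside the members gave a call after treatment. Of the other immediate early genes 0 of 52 passed with edgeR, 0 at an unadjusted p under 0.05, with a median of 0.005. Those with the smallest p were Sgk1, a kinase induced by glucocorticoids (log2 fold change 0.30, SE 0.14), and Inhba, an activin subunit (1.17, SE 0.66). Of the upstream and feedback genes 0 of 36 passed, and 1 did at an unadjusted p under 0.05. That gene was Rps6ka2, at -0.49 (SE 0.11, edgeR adjusted p = 0.73), with 284, 311 and 273 CPM in treated and 346, 475 and 398 CPM in aged retina. Dusp6 came next, at 0.36 (SE 0.17). The labels give total RNA for the 3 treated retina libraries and polyA RNA for the rest, while the protocol gives poly-A capture for all of them, and the part of this in the treated levels cannot be told apart from treatment.

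**Figure D3:**
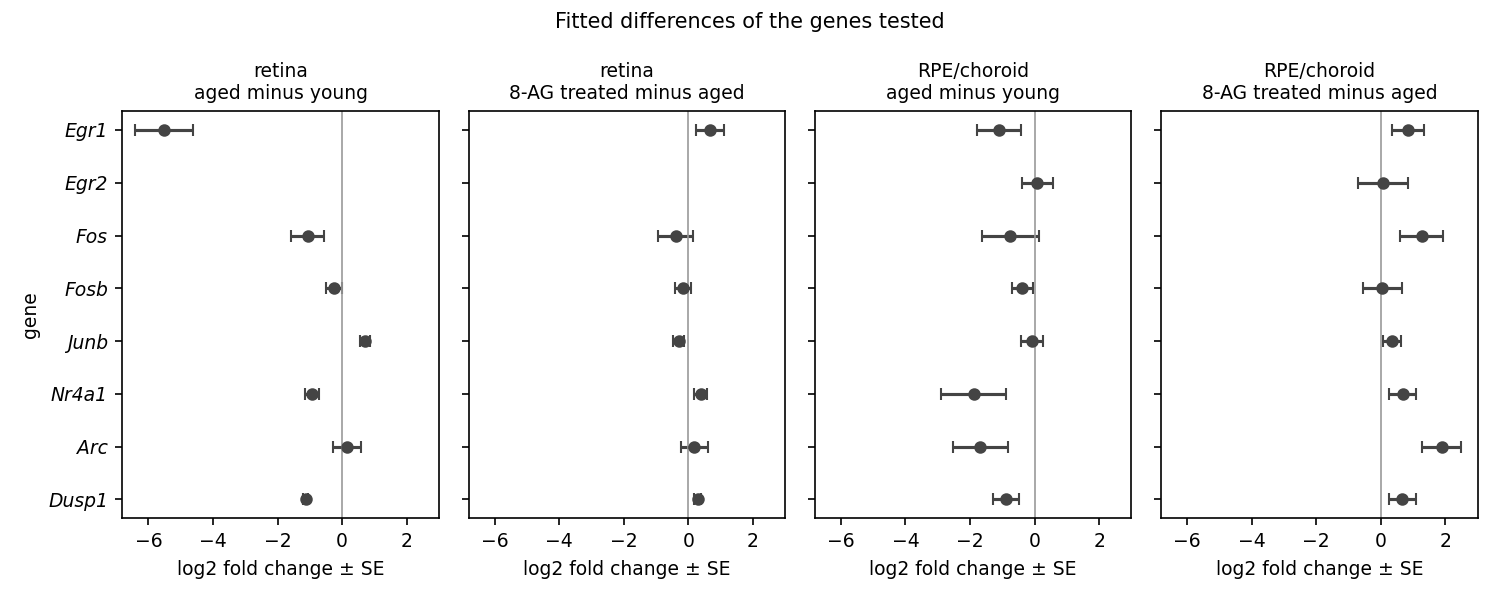
Log2 fold change ± SE of each gene tested, in the 4 comparisons; each axis runs over the same range, and a gene with no point was under the expression filter. Egr1 in aged against young retina lies at -5.51, Dusp1 there has the smallest error, and the errors in RPE/choroid reach 1.01.

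In the RPE/choroid the same genes varied more between libraries than between groups. In aged against young RPE/choroid, 0 of 8 members tested passed with edgeR (smallest adjusted p of a member 1.0), as did 0.0% of all genes. At an unadjusted p under 0.05, 0 members passed with edgeR, where 2.13% of all genes did (1.35% with a fold over 1.5 as well), and 2 (Arc and Dusp1) with DESeq2, where 2.11% did. DESeq2 gave no p for Nr4a1. With DESeq2, Arc and Dusp1 also had a fold over 1.5, at log2 fold changes of -1.69 and -0.89, and so met the study's rule. The share of all genes that met this rule with DESeq2 was not taken. The study itself lists Dusp1 among the genes it called lower in aged RPE/choroid. No member's groups lay apart, beside 4.29% of all genes on the lower and 2.89% on the higher side.

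A single young library carried most of the difference. Egr1 stood at 87.5, 78.1 and 386 CPM in young and at 60.4, 91.2 and 106 CPM in aged RPE/choroid. Young library 3 was 4.66-fold above the mean of young libraries 1 and 2, which carry one label number and differed 1.12-fold. The log2 fold change was -1.10 (SE 0.67), and 0.03 (SE 0.25) without young library 3. Without it 0 of 8 members had an unadjusted p under 0.05, beside 1.77% of all genes.

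Nr4a1 stood at 17.5, 13.2 and 166 CPM in young and at 16.7, 20.9 and 15.7 CPM in aged RPE/choroid, with young library 3 10.8-fold above the mean of the others. Its log2 fold change of -1.89 (SE 1.01) turned to 0.19 without that library. Fos stood at 9.996, 10.2 and 68.5 CPM in young and 10.1, 13.2 and 29.8 CPM in aged tissue, and its fold change of -0.75 (SE 0.88) turned to 0.79. Arc stood at 4.85, 3.27 and 26.2 CPM against 4.87, 2.92 and 2.92 CPM, at -1.68 (SE 0.84) with all libraries and -0.19 without young library 3.

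Dusp1 stood at 239, 192 and 541 CPM in young and 178, 154 and 195 CPM in aged RPE/choroid, a log2 fold change of -0.89 (SE 0.41), or -0.31 without young library 3. Junb stood at 73.0, 56.5 and 134 CPM against 74.6, 101 and 74.8 CPM, at -0.07 (SE 0.34). Egr2 stood at 5.55, 7.96 and 17.0 CPM against 6.88, 13.3 and 12.2 CPM, at 0.08 (SE 0.48), and Fosb at 3.38, 2.70 and 3.68 CPM against 2.87, 2.95 and 1.68 CPM, at -0.38 (SE 0.33). Egr3 had 0 to 42 reads per library, most in young library 3 at 0.883 CPM, and was under the filter.

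Over the 8 members tested the median log2 fold change was -0.82, beside 0.018 for all 16047 genes, and 0.11 without young library 3. That library held the highest level of 4 of 8 members (Egr1, Nr4a1, Arc and Dusp1) among the 9 libraries, where 11.1% of all genes were highest in it. It also held the most haemoglobin and other erythrocyte RNA, 3294.3 CPM summed (4 of 9 markers found) against 131 to 2343 CPM in the others, and 2078 CPM of rod markers against 18479 and 20474 CPM in young libraries 1 and 2. Its endothelial markers, 3538 CPM summed, were the highest of the 9 libraries (young libraries 1 and 2 had 2661 and 2383 CPM), and so were its clock genes, 1351 CPM, which ran from 575 CPM in treated library 3 upwards. Their part in the levels of the members was not tested. With the rod marker sum as a covariate, a fit added after the data were seen, the median was -0.67 and 0 members passed.

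**Figure D4:**
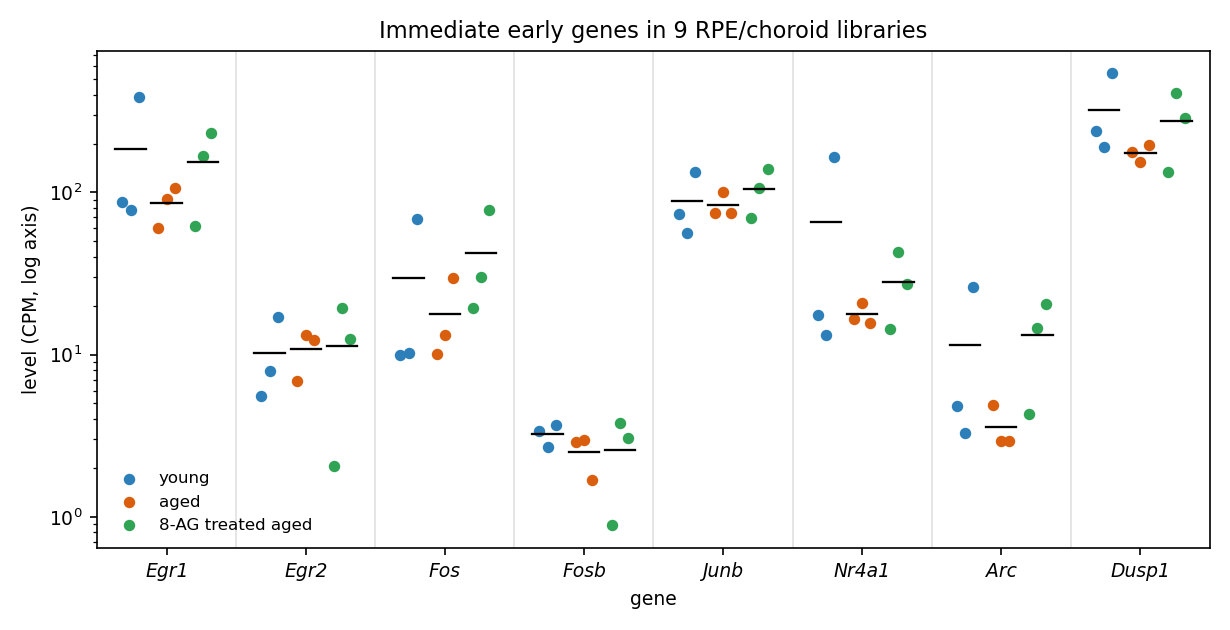
Level (CPM, log axis) of the 8 genes tested in the 9 RPE/choroid libraries; points are libraries in the order of their replicate numbers, black lines group means, and blue, orange and green are the young, untreated aged and treated groups. Young library 3 is far above the other young libraries for Egr1, Fos, Nr4a1 and Arc, and the groups overlap for every gene.

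In 8-AG treated against aged RPE/choroid, all 8 members tested had a log2 fold change above 0, with a median of 0.67 beside 0.011 for all 16257 genes. With edgeR 0 of 8 passed (adjusted p of every member 1.0), as did 0.0% of all genes, and with DESeq2 0 members passed. At an unadjusted p under 0.05, 1 member (Arc) passed with each tool, beside 1.69% of all genes with edgeR and 3.42% with DESeq2. Arc also met the study's fold rule, as did 1.65% of all genes. Its unadjusted p with edgeR, 0.0234, was 0.0521 with the aged libraries of one label number summed, 0.066 with all 3 groups in one fit and 0.0882 under the replicate block. Without aged library 2 or 3, or treated library 2 or 3, it lay between 0.0579 and 0.0841, so the unadjusted call was lost in each of these fits. Fos had an unadjusted p under 0.05 with edgeR under the replicate block (0.00477) and without aged library 3 (0.0461). The shares of all genes in these fits were not taken. The groups overlapped for all 8, where 1.91% of all genes lay apart on the lower and 2.09% on the higher side.

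In the main fit Arc had the largest difference of the members. It stood at 4.31, 14.6 and 20.5 CPM in treated and at 4.87, 2.92 and 2.92 CPM in aged RPE/choroid, a log2 fold change of 1.88 (SE 0.61, edgeR adjusted p = 1.0). Fos stood at 19.4, 30.0 and 78.1 CPM against 10.1, 13.2 and 29.8 CPM, at 1.27 (SE 0.66). In both genes treated library 1 was the lowest of the treated libraries and treated library 3 the highest.

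Egr1 stood at 62.3, 167 and 231 CPM in treated RPE/choroid, at 0.84 (SE 0.50). Nr4a1 stood at 14.3, 43.1 and 27.1 CPM, at 0.68 (SE 0.41), and Dusp1 at 133, 410 and 288 CPM, at 0.67 (SE 0.41). Junb stood at 69.9, 107 and 139.6 CPM, at 0.35 (SE 0.29). Egr2 stood at 2.05, 19.5 and 12.4 CPM, at 0.07 (SE 0.78), and Fosb at 0.887, 3.81 and 3.05 CPM, at 0.05 (SE 0.60). Treated library 1 was the lowest of its group for all 8 members, and for 5 of them (Nr4a1, Dusp1, Junb, Egr2 and Fosb) below every aged library too.

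With 1 library left out at a time, Fos ran from 0.49 (without treated library 3) to 1.88 (without aged library 3, where Arc was lower, at 1.76). The highest values of Egr1, Nr4a1, Dusp1 and Junb came without treated library 1, at 1.204, 0.978, 0.985 and 0.554. The lowest came without treated library 3 for Egr1 and Junb, at 0.418 and 0.087, and without treated library 2 for Nr4a1 and Dusp1, at 0.238 and 0.279.

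Treated library 1 was the one with 56610 CPM of rod markers, while treated libraries 2 and 3 held 927 and 903 CPM. It was also the lowest of the 9 libraries for summed endothelial (517 against 1609 to 3538 CPM), melanocyte (102 against 527 to 1075 CPM) and microglia and macrophage markers (398 against 1002 to 1935 CPM). Without it, 6 members had an unadjusted p under 0.05 with edgeR (Arc, Dusp1, Egr1, Nr4a1, Fos and Junb), beside 3.69% of all genes, the smallest adjusted p of a member was 0.925 and the median was 0.98. Without treated library 2 or 3 no member did, and the median was 0.31 or 0.49. With the rod marker sum as a covariate, added after the data were seen, Arc was at 1.52 (SE 0.53) and alone had an unadjusted p under 0.05, beside 7.41% of all genes, Egr1 was at 0.57 (SE 0.39), and Egr2 and Fosb were below 0, at -0.57 and -0.27. Aged library 2, with the fewest rod markers of all, 641 CPM, was the highest aged library for Egr2, Egr3, Fosb, Junb and Nr4a1 and not for Egr1, Fos, Arc and Dusp1. Treated library 3, the highest treated library for Arc, Fos, Egr1 and Junb, also held 221 CPM of surface epithelium keratins, 2343 CPM of erythrocyte markers and 2530 CPM of muscle markers. Treated library 1, the lowest for these genes, held 1256 CPM of the keratins and 2356 CPM of muscle markers. The part of these tissues in the members' levels was not tested.

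No gene of the wider lists passed in RPE/choroid. Of other immediate early genes 0 of 53 passed with edgeR in the aging comparison (1 at an unadjusted p under 0.05, median 0.10) and 0 of 52 after treatment (0 unadjusted, median -0.20). The aging list was led by Sgk1 at -0.53 (SE 0.13, edgeR adjusted p = 1.0), which stood at 345 to 380 CPM in aged and 491 to 571 CPM in young tissue, and by Fosl1, a Fos relative, at 1.02 (SE 0.46). The treatment list was led by Jund at -1.20 (SE 0.53) and Cebpb at -1.97 (SE 0.91), from 2.20 to 12.5 CPM and 0.183 to 2.33 CPM over these 6 libraries. Of upstream and feedback genes 0 of 37 passed in either comparison, with medians of 0.02 and -0.15, and 1 (Creb1, the factor that binds cAMP response elements, at -0.54, SE 0.16) and 0 at an unadjusted p under 0.05. Spry4, an inhibitor of receptor tyrosine kinase signalling, followed at -0.53 (SE 0.27) with age, and Elk1 and Spred2 led after treatment, at 0.38 (SE 0.22) and -0.98 (SE 0.60).

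**Figure D5:**
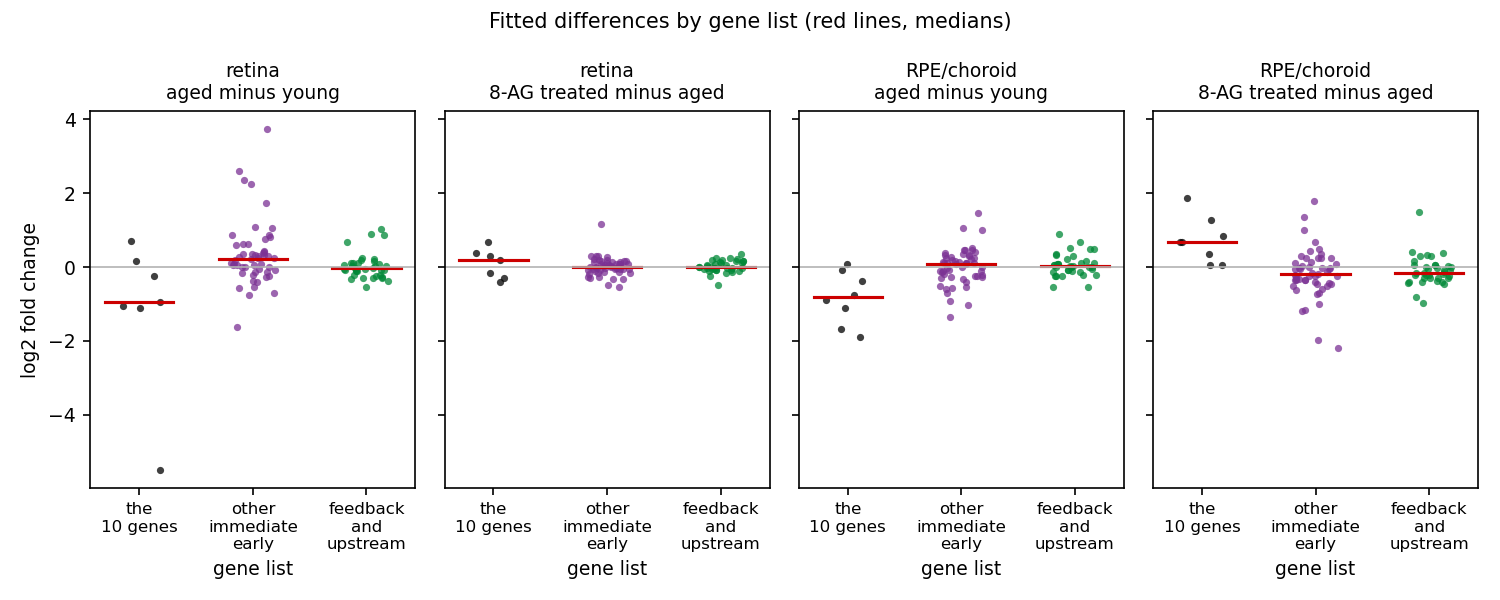
Log2 fold changes of single genes (points) by list in the 4 comparisons: the 10 genes (7 tested in retina, 8 in RPE/choroid), other immediate early genes (52 or 53 tested) and upstream or feedback genes (36 or 37 tested); red lines are medians and the grey line is 0. The medians of the members that passed the filter are -0.94, 0.19, -0.82 and 0.67 from left to right (-0.25 in place of -0.94 over the 9 measured members with no filter), and those of the other lists lie between -0.20 and 0.23.

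Apart from Egr1, the members lay at similar distances from their median in both tissues, but the retina median was nearly flat. Similar distances therefore do not mean that the members moved together to the same degree. The 0.25 CPM added before log2 also damped the changes of Egr2, Egr3 and Arc in retina, which had few reads. Likeness was measured as the mean absolute difference of centred log2 CPM over the 9 libraries, from the median of the 9 measured members. In the RPE/choroid the members lay 0.17 (Dusp1) to 0.63 (Fos) from that median, which ran at -0.40, -0.57 and 1.44 in young, -0.42, -0.25 and -0.26 in aged and -0.78, 0.79 and 0.43 in treated libraries. In the retina Egr1 lay 2.15 and the other 8 members 0.23 (Fosb) to 0.59 (Egr2) from a median that stayed between -0.21 and 0.47.

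The genes nearest to the RPE/choroid median, out of all with a symbol and a mean log2 CPM of at least 1, were AABR07000411.1 at 0.21, Nuak2, a stress-responsive kinase, at 0.25, Csrnp1, a nuclear protein of the immediate early class, at 0.25, Nes, an intermediate filament of progenitor and vascular cells, at 0.28, Polr3g, an RNA polymerase III subunit, at 0.30 and Zfp36, an mRNA decay factor of the immediate early class, at 0.30. Zfp36 stood at 60.2, 60.4 and 172 CPM in young and 21.5, 125 and 84.2 CPM in treated RPE/choroid. The genes nearest to the flat retina median were Cpt1b, Cmtm4, Ankrd13b, Pcdhb10, Arhgap19 and Plppr5, at 0.09 to 0.10, which says only that they varied little.

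For Egr1 alone in retina, a search added after its values were seen, no gene came close. The nearest were Adamts18 at 1.02, the lens crystallins Crybb1 at 1.09 and Cryab at 1.22, the basement membrane collagen Col4a1 at 1.28, the lens protein Grifin at 1.29 and Igf2bp2, an mRNA-binding protein, at 1.32. Adamts18 stood at 10.7, 16.6 and 1.97 CPM in young, at 0.319 to 0.623 CPM in aged and at 7.22 CPM in the lens-rich treated library. Igf2bp2 stood at 56.2, 54.7 and 60.8 CPM in young and 12.3 to 13.2 CPM in aged retina, with the lens-poor young library the highest. For Egr1 in RPE/choroid, likewise added afterwards, Nuak2 was nearest at 0.29.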

How the data were processed

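The authors deposited RSEM expected counts per gene for 9 retina libraries and raw read counts per gene for 9 RPE/choroid libraries, neither normalized. The submitters' notes name Rnor_6.0, Bowtie2 2.1.0, RSEM 1.2.15 and edgeR, with no role given. A retina table of TMM-scaled CPM signal, also deposited by the authors, gave gene names and one alternative. Tables of the authors' own fold changes and p-values were used for gene names only.

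Expected counts were rounded, since 11.5% were not whole. Symbols came from the authors' tables (16680 identifiers) or from both retina tables having equal reads in all 9 libraries after rounding to whole reads (2482 more), and the same name resulted for 90.8% of the 15377 that could be named either way. Each comparison used its 6 libraries alone, in R 4.3.3 with edgeR 4.0.16 (filterByExpr, TMM, estimateDisp, glmQLFit with robust=TRUE, glmQLFTest, Benjamini-Hochberg over all genes tested), and with DESeq2 1.42.0 and limma 3.58.1 as alternatives. The fits were also run on simulated data, drawn with a common dispersion for all genes and no outlying library. That run does not bear on single libraries that stand apart. Summaries used Python 3.11.15 with pandas 2.3.3, and figures matplotlib 3.10.9. The members and all gene lists were chosen with earlier results of these data known. Named beside the members are, per list and comparison, up to 4 genes with the largest change among those called, or the 2 with the smallest p, and the 6 genes nearest in profile (0.25 CPM added before log2). Replicates of every group differed beyond counting noise. CPM rests on counts, so its precision covers counting error and library spread only.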

Additional observations from a re-analysis of the deposited data

How the results depend on the processing

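The number of members passing an adjusted p under 0.05 stayed at 0 in the 3 comparisons tested under every alternative run: RLE size factors, DESeq2, no filter, a minimum of 10 counts per library, all 3 groups in one fit, the replicate block, leaving out each library, limma on the authors' TMM CPM for retina, and, for RPE/choroid, label pairs summed and the rod marker sum as covariate. In aged against young retina, the median over the 7 members that passed the main filter ran from -1.07 to -0.69 when a library was left out and from -0.996 (6 members, with the minimum of 10 counts) to -0.884 otherwise. Where Egr2 or Egr3 also entered, the median over all members tested was -0.25 with no filter (9 members), -0.26 with DESeq2 (9), -0.59 with all 3 groups in one fit (8), -0.57 with limma (8) and -0.71 to -0.45 without young library 1, 2 or 3 or aged library 3 (8). Plain totals moved single levels by at most 6.10% in retina and 9.08% in RPE/choroid.

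The sign turned for few-read or library-bound values. In retina, Arc with age turned to -0.191 without aged library 1 (range -0.191 to 0.508), and after treatment Fos turned to 0.062 (without aged library 1), Fosb to 0.067 (without aged library 2) and Arc to -0.15 and -0.01, with ranges of -0.766 to 0.062, -0.321 to 0.067 and -0.15 to 0.54. In aged against young RPE/choroid, the ranges were -1.34 to 0.79 for Fos, -2.37 to 0.19 for Nr4a1, -1.471 to 0.033 for Egr1, -0.32 to 0.35 for Junb and -0.22 to 0.66 for Egr2, each with a turned sign. Junb was 0.011 under the replicate block, and Egr2 -0.11 with label pairs summed. After treatment, the ranges were -0.33 to 0.45 for Fosb and -0.57 to 0.56 for Egr2, with Fosb at -0.094 and Egr2 at -0.34 under the replicate block and -0.27 and -0.57 with the rod marker covariate. The cause of each turn was not tested beyond the library left out.

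Same-numbered libraries did not deviate together (correlations of -0.62 to 0.67 over the pairs), so numbers were not taken as pairs. With the replicate block, 1698 in place of 2122 genes were called in aged against young retina and 0 in place of 3 after treatment, and 0 members in the 3 tested comparisons. Counts of all genes called also moved in treated retina (0 to 18, with 10 under no filter, 0 with 10 counts in every library and 18 with DESeq2; 0 to 3 with a library left out) and with DESeq2 in RPE/choroid (29 with age and 81 after treatment in place of 0, and 1 with the rod covariate in the aging comparison). In aged against young retina, leaving out a library gave 1245 to 2312.

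Depth limits Egr2, Egr3, Egr4 and Arc in retina, where single libraries held as few as 1 read of Egr2. In RPE/choroid the spread between libraries limits the tests: common dispersion was 0.195 and 0.396, against 0.0147 and 0.0179 in retina.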
